A study of Homo sapiens with 2 samples.

Results

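The BCL2 family decides whether the outer membrane of the mitochondrion stays closed or is opened to release cytochrome c. Pro-survival proteins hold the effectors BAX and BAK in check, and BH3-only proteins, named for the short helix with which they bind their relatives, either neutralise the pro-survival proteins or engage the effectors directly. In myeloid leukaemia cells this balance is known to set how readily the cells die under drug treatment. RNA of 10 family members was compared here between an eltrombopag-treated and an untreated sample: the effectors BAX and BAK1, the BH3-only genes BID, BIK, BCL2L11 and PMAIP1, the atypical member BCL2L13, and the pro-survival genes BCL2, BCL2L1 and MCL1. They were taken as a list of symbols, out of 19775 genes named on the array, and all 35 probe sets that the platform annotation assigns to these genes alone are included.

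The eltrombopag sample came from the line labelled HL60 and was exposed to the drug at 3 µg/ml for 36 h in RPMI with 10% serum, and the untreated sample came from the same line in the same medium. HL60 is a human promyelocytic leukaemia line, here labelled as hematopoietic stem in type, and eltrombopag is an oral drug that activates the thrombopoietin receptor and also chelates iron. Each group held 1 sample, so no test of the treatment was possible and every difference below is one between 2 arrays. The labels give neither a culture time nor a vehicle for the untreated sample, so an effect of either cannot be told apart from that of the drug.

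Values are MAS5 signals, a linear brightness per probe set, and ratios are log2 of eltrombopag over untreated. Signals below a floor of 56.9, the 60th percentile of both arrays pooled, were raised to it, so a ratio with 1 sample under the floor is a bound. A gene is called measured when its brightest probe set reached the floor in at least 1 sample, which held for 10314 genes and for all 10 members. The median ratio over these genes was -0.12, with quartiles of -0.37 and 0.11, and 63.4% of them lay below 0, so a small negative ratio was the ordinary value on these arrays. The only error that can be measured is the disagreement between probe sets of the same gene. All probe sets read the same 2 samples, so this disagreement leaves out variation between cultures and between arrays. Over 4374 genes, the ratios of the 2 brightest probe sets differed by a median of 0.21, and the 90th percentile of the difference was 0.60. In RNA from whole cultures, fewer cells of a type and less RNA per cell cannot be told apart.

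Markers were only partly those of a promyelocyte. Of 11 promyelocyte markers on the array, 9 were measured, among them MPO, the granule enzyme myeloperoxidase, with a signal of 1467 in the eltrombopag and 1556 in the untreated sample, a ratio of -0.08, and with 0.26 in its other probe set. ELANE, neutrophil elastase, and SPI1, the transcription factor PU.1, lay below the floor in both. Of the 9, 6 had a ratio below 0, against 63.4% of all measured genes. The lowest were CEBPA, a myeloid transcription factor, CSF3R, the G-CSF receptor, and CTSG, the granule protease cathepsin G, at -1.55, -1.17 and -0.84. The 3 above 0 were MYB at 0.43, AZU1 at 0.26 and SRGN at 0.10. The other probe sets of SRGN had -0.88 and 0.38. The summed signal of the 11 genes was 16814 in the eltrombopag and 15951 in the untreated sample. Sums here take the highest signal of each gene in each sample, which can come from different probe sets. Most of this sum was SRGN and MYB, with 7685 and 5855 in the eltrombopag and 7160 and 4349 in the untreated sample. The sum therefore does not describe the 6 markers below 0. Of 12 plasma cell markers, 11 were above the floor in both samples. JCHAIN, the joining chain of secreted antibodies, had a signal of 4866 in the eltrombopag and 7972 in the untreated sample. The summed signal of the 12 genes was 11436 in the eltrombopag and 19479 in the untreated sample, with all 11 measured genes lower and a median ratio of -1.27. IGHG1, an antibody heavy chain gene, was below the floor in both. The identity of the cells is thus in doubt, and HL60 is used here only as their label. Among the remaining markers measured were 2 of 6 B-cell, 2 of 8 T-cell, 1 of 7 monocyte, 1 of 5 erythroid and megakaryocyte, and 3 of 9 fibroblast and epithelial genes. The levels of plasma cell genes and of some promyelocyte genes therefore moved with the treatment label, and their part in each result on the BCL2 family was not tested.

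The promoters of members with unlike ratios are shown because the family did not move as a block. PMAIP1 had the highest ratio of the 10. BAX, a bound, had the lowest among the 5 members for which the promoter table holds a single start. With the floor used here, BCL2L13 and BIK had lower ratios than BAX. Each run is the 250 bases before the transcription start, from RefSeq on GRCh38.p14, and 8 of the 10 members had an entry. Capitals mark TGACG, the half-site bound by CREB and ATF factors, and CACGTG, the E-box bound by MYC and USF factors, read on both strands.
PMAIP1, chr18:59899746-59899995, plus strand: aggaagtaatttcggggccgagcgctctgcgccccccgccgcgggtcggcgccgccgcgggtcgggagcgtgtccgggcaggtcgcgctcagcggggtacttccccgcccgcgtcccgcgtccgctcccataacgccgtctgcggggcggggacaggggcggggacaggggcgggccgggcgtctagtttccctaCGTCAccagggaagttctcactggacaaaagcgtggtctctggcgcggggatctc
BAX, chr19:48954625-48954874, plus strand: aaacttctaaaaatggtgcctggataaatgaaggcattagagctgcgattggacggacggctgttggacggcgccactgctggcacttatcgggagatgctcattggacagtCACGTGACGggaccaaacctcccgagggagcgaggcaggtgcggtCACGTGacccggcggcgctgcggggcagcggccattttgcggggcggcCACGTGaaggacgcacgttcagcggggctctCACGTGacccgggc

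The PMAIP1 window held 1 TGACG, on the minus strand with its first base 55 before the start, no CACGTG, and 4 copies of GGGCGG, the GC box bound by SP1. The BAX window held 4 CACGTG, beginning 138, 93, 45 and 14 bases before the start, 1 TGACG that overlaps the farthest of them, and 1 GGGCGG. Of 35116 promoter windows of this length, 21.2% held TGACG, 6.34% held CACGTG and 42.6% held GGGCGG. At least 4 CACGTG were found in 5 windows, or 0.0142%, and at least 4 GGGCGG in 7.63%. The number 4 is the count in the windows shown, and the BAX window is itself 1 of the 5, so these shares are descriptions only. The windows of BCL2 and BCL2L1 (1 of its 2) also held 1 TGACG, as did 1 of 3 windows of BCL2L13. Some of the 5 windows of BID, a member with a ratio below 0, held 1 CACGTG, and others held 4 GGGCGG. The window of BCL2L11 held 3 GGGCGG and that of BAK1 held 2. Neither CACGTG nor 4 GGGCGG was thus particular to BAX or PMAIP1 within the family. These matches describe letters and not bound sites.

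None of the 10 members was at least 2-fold higher and none was shown to be at least 2-fold lower, where 0.650% and 2.27% of all measured genes were. With so few genes, a count of 0 is near these shares. BAX has only a bound, and with the floor at the 50th percentile or without one it was at least 2-fold lower, which makes that count 1. At 1.5-fold, 0 were higher and 3 lower, against 3.49% and 11.8% of all measured genes. The 3 were BCL2L13, BIK and BAX. The median ratio of the 10 was -0.34, which is 0.22 below that of all measured genes. Of the 10, 8 lay below 0, against 63.4% of all measured genes. PMAIP1 and BCL2 were the 2 members above 0. At the level of probe sets, 25 of the 35 reached the floor in at least 1 sample, 18 of these in both, and 18 of the 25 had a ratio below 0, against 62.9% of all measured probe sets with a gene name.

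**Figure D1:**
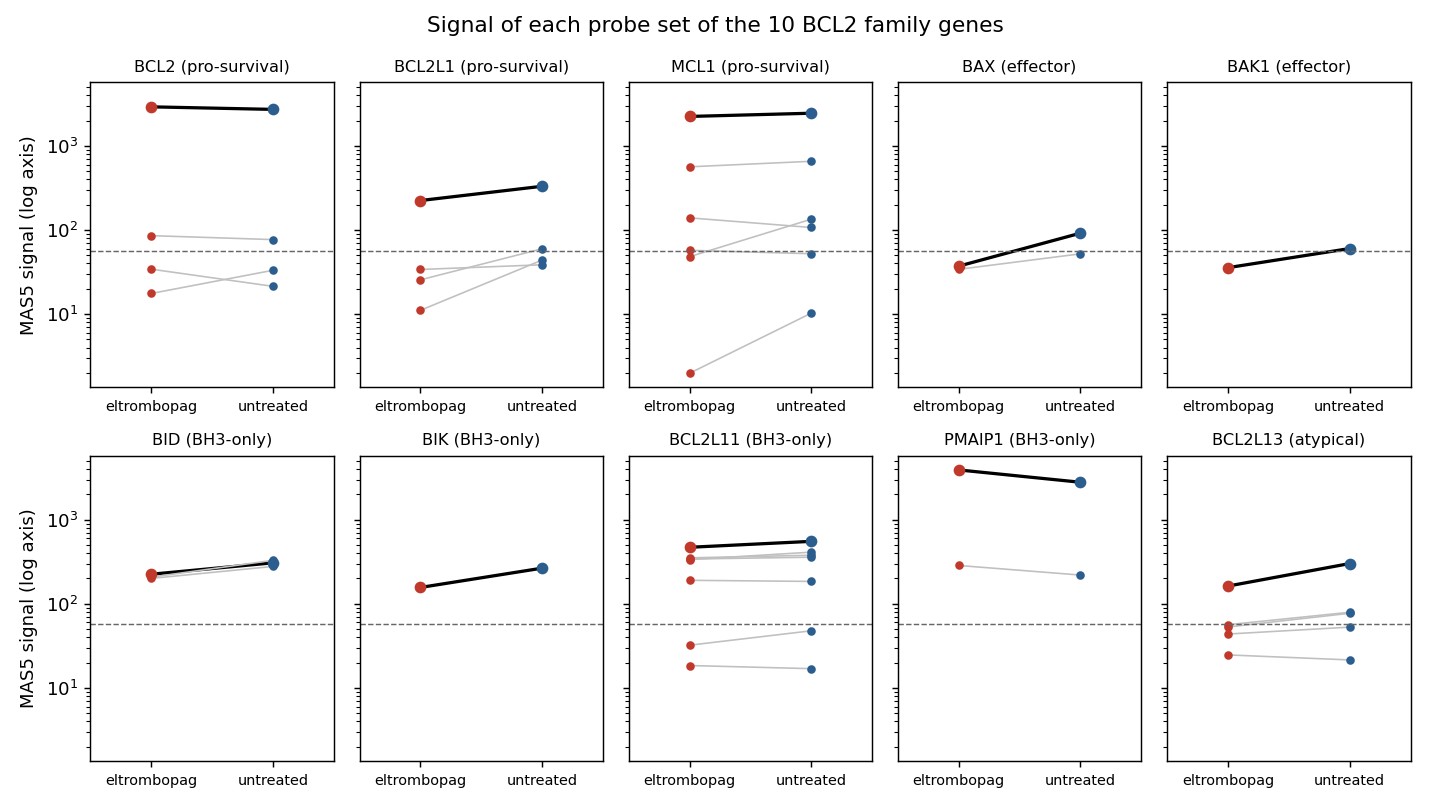
MAS5 signal (log axis) of every probe set of the 10 genes in the eltrombopag (red, left) and the untreated sample (blue, right); black lines join the brightest probe set of each gene, grey lines the others, and the dashed line is the floor of 56.9. PMAIP1 slopes down to the untreated sample in both of its probe sets, BID slopes up in all 3, and BAX and BAK1 lie at or below the floor with eltrombopag.

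PMAIP1 encodes NOXA, a BH3-only protein that binds MCL1 and favours its degradation, and was the pro-death member that was higher. Its brightest probe set, 204285_s_at, had a signal of 3907 in the eltrombopag and 2789 in the untreated sample, a ratio of 0.49 or 1.40-fold. The other, 204286_s_at, had 286 in the eltrombopag and 220 in the untreated sample, a ratio of 0.38. Both are above the floor and point the same way, and they differ by 0.11, less than the median disagreement of 0.21. Since both read the same 2 samples, their likeness does not cover variation between cultures. A higher ratio was found in 5.29% of measured genes.

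BIK encodes a BH3-only protein of the endoplasmic reticulum. Its 1 probe set, 205780_at, had a signal of 156 in the eltrombopag and 265 in the untreated sample, a ratio of -0.76 or 1.70-fold lower, and 5.99% of measured genes had a lower ratio. With a lone probe set, no disagreement within the gene can be given.

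BID encodes the BH3-only protein that caspase-8 cleaves, joining death receptors to the mitochondrion. Its 3 probe sets had signals of 225, 208 and 200 in the eltrombopag sample, against 307, 328 and 278 in the untreated sample, with ratios of -0.45, -0.66 and -0.47. All 3 probe sets were lower in the eltrombopag sample. The brightest was 1.37-fold lower, and 19.4% of measured genes had a lower ratio than it.

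BCL2L11 encodes BIM, which binds every pro-survival protein and can engage BAX. Of its 7 probe sets, 5 were above the floor in both samples. They had signals of 470, 336, 352, 341 and 190 in the eltrombopag sample, against 553, 411, 378, 358 and 184.5 in the untreated sample. The remaining 2, below the floor in both samples, had 32.2 and 18.4 in the eltrombopag sample, against 47.7 and 16.9 in the untreated sample. Ratios of the first 5 ran from -0.29 to 0.04, with 4 below 0, and the brightest stood at -0.23, within the quartiles of all measured genes. BCL2L11 was thus the best covered of the pro-death members and lay near the array median of -0.12. The BH3-only genes as a set of 4 had ratios from -0.76 to 0.49 with a median of -0.34.

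The effectors were faint. BAX, which inserts into the outer membrane and forms pores, had a signal of 37.2 in the eltrombopag and 91.8 in the untreated sample in 211833_s_at, so it was at least 1.61-fold lower. Its other probe set had 34.1 in the eltrombopag and 52.1 in the untreated sample, below the floor in both. BAK1, the effector that resides on mitochondria, had 35.7 in the eltrombopag and 60.2 in the untreated sample in its 1 probe set, at least 1.06-fold lower. Only the untreated sample reached the floor for either gene, so the size of neither difference is settled.

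BCL2L13, also called BCL-rambo, is an atypical member of the outer membrane described both as pro-apoptotic and as a receptor for the removal of mitochondria, and was counted with the pro-death genes. With the floor used here it had the lowest ratio of the 10, but BAX, a bound, stood at -1.30 without a floor or with one at the 50th percentile, and BIK and BAX lay lower when probe sets were averaged. In 217955_at its signal was 162 in the eltrombopag and 301 in the untreated sample, a ratio of -0.89 or 1.85-fold lower, and 3.66% of measured genes had a lower ratio. The next 2 probe sets had 56.4 and 53.0 in the eltrombopag sample, just under the floor, against 79.3 and 77.1 in the untreated sample, with bounded ratios of -0.48 and -0.44. All 3 were lower, while the mean over them, -0.60, was smaller in size than the brightest. The remaining 2, below the floor in both samples, had 43.7 and 24.7 in the eltrombopag sample, against 52.8 and 21.5 in the untreated sample.

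**Figure D2:**
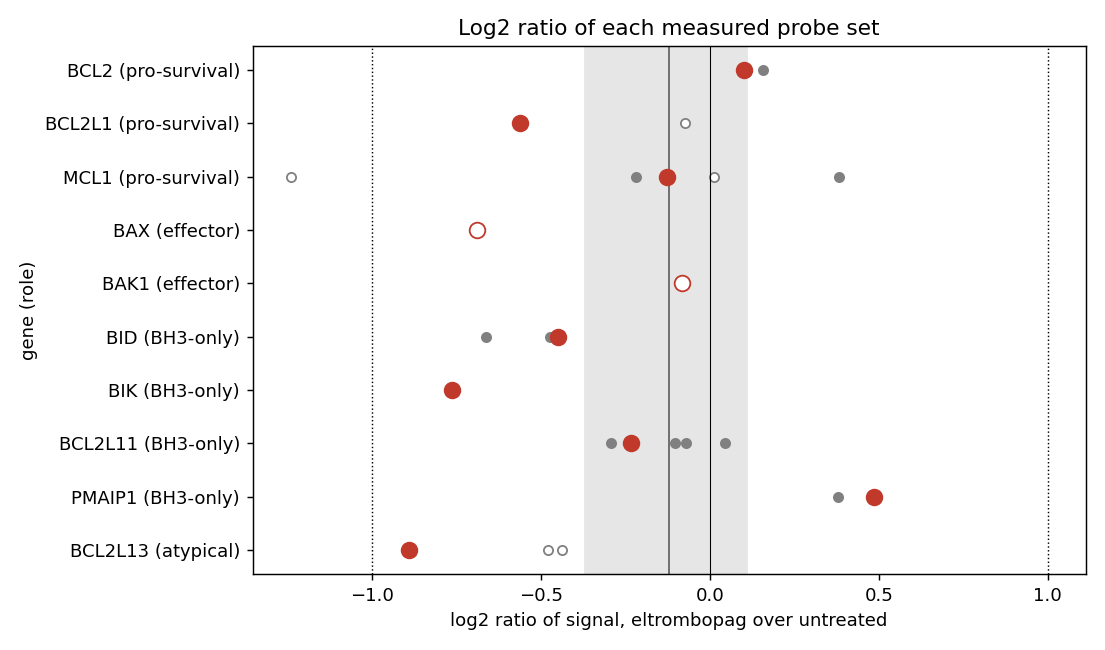
Log2 ratio of eltrombopag over untreated for each measured probe set (x axis) by gene (y axis); large red points are the brightest probe set of a gene, small grey points the others, and open points are bounds with 1 sample under the floor. The grey band spans the quartiles of all measured genes (-0.37 to 0.11), the grey line is their median and dotted lines mark 2-fold; BCL2L13, BIK, BAX, BID and BCL2L1 lie left of the band and PMAIP1 right of it.

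Among the pro-survival genes, BCL2 and MCL1 were bright and differed little, and BCL2L1 was lower. BCL2, first found at a lymphoma translocation, had a signal of 2918 in the eltrombopag and 2722 in the untreated sample in 203685_at, a ratio of 0.10. A dimmer probe set had 85.8 in the eltrombopag and 77.0 in the untreated sample, a ratio of 0.16. The 2 agree to within 0.06, and a further 2 probe sets lay below the floor in both samples with opposite directions, at 34.3 and 17.6 in the eltrombopag sample, against 21.4 and 33.2 in the untreated sample.

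MCL1 encodes a short-lived pro-survival protein on which many myeloid and plasma cell cancers depend. Its brightest probe set, 200797_s_at, had 2243 in the eltrombopag and 2451 in the untreated sample, a ratio of -0.13, equal to the array median within 0.01. The next, 200798_x_at, had 565 in the eltrombopag and 657 in the untreated sample, a ratio of -0.22. The dimmer probe sets disagreed with these and with each other. In 214057_at the signal was 140 in the eltrombopag and 107 in the untreated sample, a ratio of 0.38. In 200796_s_at it was 48.2, under the floor, in the eltrombopag and 135 in the untreated sample, so at least 2.37-fold lower. In 214056_at it was 57.4 in the eltrombopag and 52.3, under the floor, in the untreated sample, a bounded ratio of 0.01, and in 227175_at, below the floor in both, 1.98 in the eltrombopag and 10.3 in the untreated sample. With a range of 1.62 between its measured probe sets, MCL1 was the least settled member, and the files do not say which transcript each probe set detects.

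BCL2L1 encodes BCL-XL, the pro-survival protein prominent in erythroid cells and platelets. In 212312_at its signal was 224 in the eltrombopag and 331 in the untreated sample, a ratio of -0.56 or 1.48-fold lower, and 12.7% of measured genes had a lower ratio. In 215037_s_at it was 25.6 in the eltrombopag and 59.9 in the untreated sample, just above the floor, so only a bound of -0.07 can be given. The 2 probe sets below the floor in both samples had 11.1 and 34.0 in the eltrombopag sample, against 43.9 and 38.6 in the untreated sample, so all 4 were lower as deposited.

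Set against each other, the pro-death members had a median ratio of -0.45 over 7 genes and the pro-survival members -0.13 over 3 genes, a difference of -0.32. The pro-survival median is the ratio of MCL1 in 200797_s_at alone. MCL1 was the least settled member, with measured probe sets from -1.24 to 0.38. Ratios of the pro-death genes ran from -0.89 to 0.49 and those of the pro-survival genes from -0.56 to 0.10, so the pro-survival values lie wholly within the span of the pro-death ones. By probe set, 13 of 16 measured pro-death and 5 of 9 measured pro-survival probe sets had a ratio below 0. Of all measured probe sets with a gene name, 62.9% did. Probe sets of the same gene are not independent, and BCL2L11 gave 5 of the 16 and MCL1 5 of the 9. The pro-death median was -0.34 without BCL2L13 and the difference then -0.22. When the suffixes _x_at and _s_at were dropped the pro-survival median was 0.10, above 0, and the difference -0.57; BAX and PMAIP1 had no measured probe set there. With no floor the pro-death median was -0.76 and the difference -0.63, because BAX and BAK1 then enter with ratios of -1.30 and -0.76. No test of this difference was possible.

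**Figure D3:**
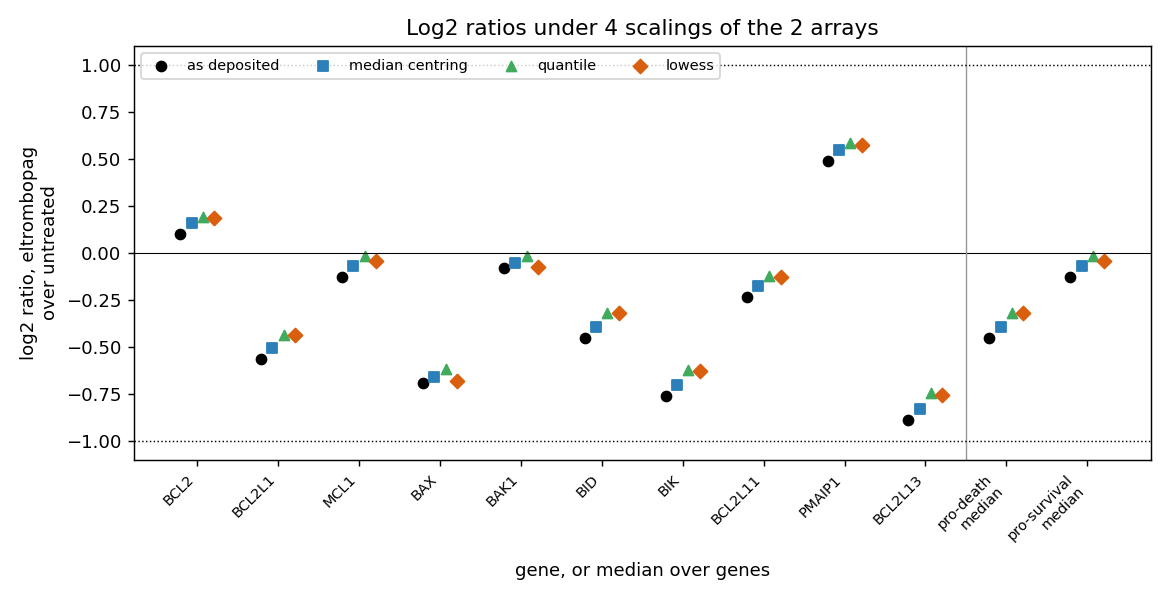
Log2 ratio of eltrombopag over untreated (y axis) for each gene and for the pro-death and pro-survival medians (x axis) with the arrays as deposited, median centred, quantile normalized or corrected by lowess; dotted lines mark 2-fold. Each gene stays on its side of 0, and PMAIP1 lies at 0.49 as deposited and 0.59 after quantile normalization.

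By their brightest probe sets, other BCL2 family genes stayed within 1.5-fold, where 3.49% of all measured genes were higher and 11.8% lower. Of 12 on the array, 6 were measured, with a median ratio of -0.23. Below 0 were 5 of the 6, against 63.4% of all measured genes. BAD, a BH3-only protein controlled by phosphorylation, had the lowest ratio, with a signal of 77.8 in the eltrombopag and 110 in the untreated sample, a ratio of -0.50. Its dimmer probe set had 42.6, under the floor, in the eltrombopag and 94.6 in the untreated sample, a bounded ratio of -0.73. BCL2L12 had -0.45, BNIP3L, a receptor for the removal of mitochondria, -0.27, and BMF, a BH3-only gene, -0.20. The 6 below the floor in both samples were BCL2A1, BCL2L10, BCL2L14, BCL2L15, BOK and HRK.

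Downstream of the family, all 9 genes of the apoptosome, of proteins released with cytochrome c and of the VDAC channels were measured. All 9 lay below 0, against 63.4% of all measured genes. Of them, 2 were at least 1.5-fold lower and none at least 2-fold, against 11.8% and 2.27% of all measured genes. The median was -0.41 against -0.12 over all measured genes. ENDOG, a mitochondrial nuclease, at -0.01, and VDAC3 and VDAC2, at -0.14 and -0.19, lay near or above that overall median. HTRA2, a protease released from mitochondria, had a signal of 303 in the eltrombopag and 515 in the untreated sample, a ratio of -0.77, with -0.80 in its other probe set. CYCS, cytochrome c itself, had 2332 in the eltrombopag and 3681 in the untreated sample, a ratio of -0.66, but its next probe sets gave 0.28 and -0.21. VDAC1, a channel of the outer membrane, had -0.57 and AIFM1, apoptosis-inducing factor, -0.49.

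Caspases, the proteases that carry out apoptosis, had a median of -0.24 over 7 genes. Of these, 5 lay below 0 and 1 was at least 1.5-fold lower, against 63.4% and 11.8% of all measured genes. With so few genes, both counts are near these shares. The gene past 1.5-fold was CASP2, with a signal of 1105 in the eltrombopag and 1880 in the untreated sample, a ratio of -0.77, though its probe sets ran from -1.05 to 0.17. CASP6 had -0.48 in its brightest and -0.71 in its other probe set, CASP8 -0.47 and a bounded -0.95, and CASP4 -0.24. The caspase inhibitors had a median of 0.01 over 5 genes. XIAP, which binds active caspases, had 0.18 in its brightest probe set and 0.06 to 0.68 across 5, all above 0, BIRC6 had 0.32 and BIRC2 -0.05. BIRC5, survivin, which also serves in mitosis, was 1.57-fold lower, a ratio of -0.65, with -0.85 and -0.82 in its other probe sets. It was the 1 of these 5 at least 1.5-fold lower, against 11.8% of all measured genes.

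In the death receptor pathway, 7 of 8 measured genes lay below 0 by their brightest probe set, against 63.4% of all measured genes. The median was -0.24. Among these 7, TNFRSF10A and CFLAR had probe sets on both sides of 0, from -0.25 to 0.29 and from -0.99 to 0.12. TNFRSF10B, the TRAIL receptor DR5, was the 1 gene above 0 by its brightest probe set. Its signal was 863 in the eltrombopag and 586 in the untreated sample, a ratio of 0.56, with 0.28 and 0.16 in its dimmer probe sets. TRADD, an adaptor of the TNF receptor, had -0.66, FAS -0.54 and TNFRSF1A, the TNF receptor, -0.41.

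Among transcription factors known to control BCL2 family genes, 12 were measured and the median was -0.07. None was shown to reach 1.5-fold by its brightest probe set, where 3.49% of all measured genes were higher and 11.8% lower. DDIT3, the stress factor CHOP, which is known to act on BCL2L11 and TNFRSF10B, had a signal of 923 in the eltrombopag and 636 in the untreated sample, a ratio of 0.54 from 1 probe set. RELA, a subunit of NF-kB, had 0.40. E2F1, a driver of S phase genes, had -0.54 in its brightest and -0.92 in its other probe set. FOXO1 had 47.5, under the floor, in the eltrombopag and 79.0 in the untreated sample, a bounded ratio of -0.47. Of 4 measured genes that govern the turnover of the MCL1 protein, FBXW7, the receptor of a ubiquitin ligase, was 1.54-fold higher, with 1278 in the eltrombopag and 829 in the untreated sample, and all 3 of its measured probe sets lay above 0, from 0.28 to 0.75. HUWE1, USP9X and BTRC had 0.10, 0.08 and -0.01 in their brightest probe sets. The other measured probe sets of HUWE1 had -0.18 and -0.02, and those of USP9X -0.28 and a bounded -0.32.

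**Figure D4:**
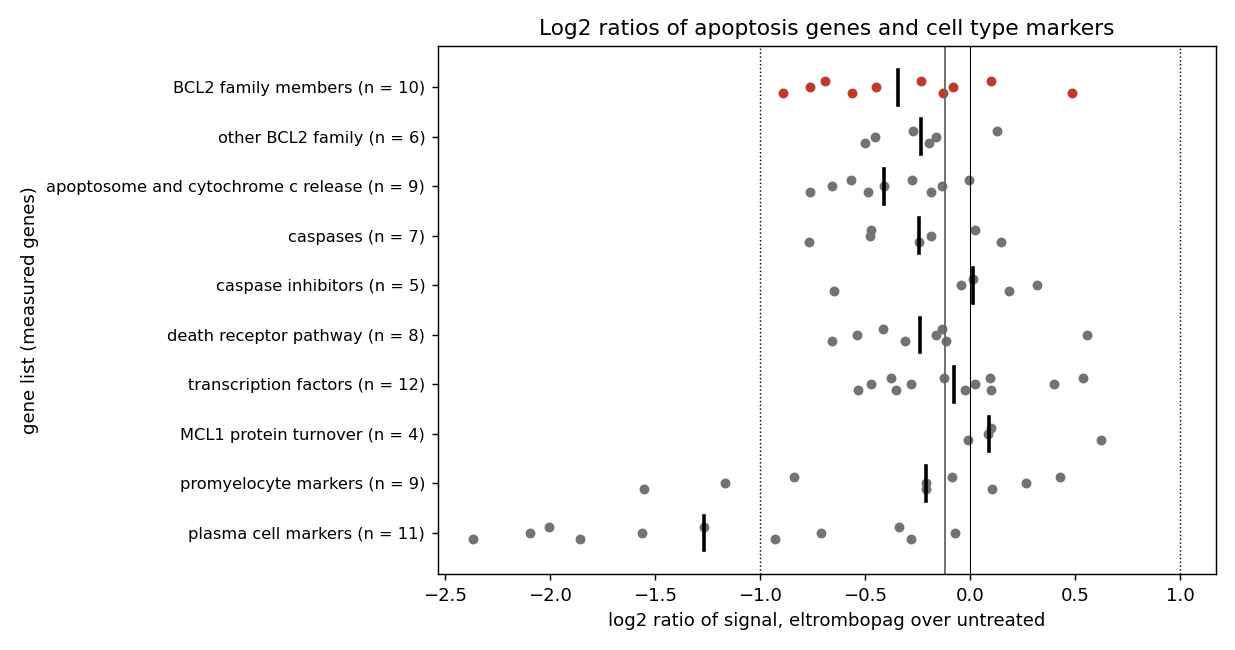
Log2 ratio of eltrombopag over untreated (x axis) for each measured gene of the BCL2 family list (red) and of the other apoptosis and marker lists (grey); black bars are list medians, the grey line is the median of all measured genes and dotted lines mark 2-fold. By its brightest probe set, none of the apoptosis genes is shown to pass 2-fold. At least 2-fold lower are 6 of 11 plasma cell markers and 2 of 9 promyelocyte markers, against 2.27% of all measured genes.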

How the data were processed

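RNA from 2 samples, 1 eltrombopag and 1 untreated, was measured on expression arrays with biotin-labelled cRNA, per the labels' protocols. The deposited table holds 1 signal intensity for each of 54613 probe sets and each sample; the submitters' processing notes name MAS5, whose version and scaling target are not stated there, and no detection calls were used. MAS5 corrects background within each array, so low intensities carry large relative error, and the number of arrays limits the precision. Of these, in the platform annotation, 41091 had 1 gene, 1801 had several and 11721 were unlisted. Intensities were used as deposited, floored at the 60th percentile of both arrays and compared on the log2 scale, with the brightest probe set (highest mean log2 signal) per gene. Members and lists were chosen with earlier results of these data known. All member probe sets are given, up to 4 genes per other list with the largest ratio, and MPO and JCHAIN from among the brightest 4 markers of their lists. ELANE, SPI1, IGHG1, CEBPA, CSF3R, CTSG, MYB, AZU1, SRGN, ENDOG, VDAC2, VDAC3, TNFRSF10A and CFLAR were named after their values were seen. List genes without a probe set of their own were not analysed here. Counting was tested on simulated data. The planted changes were larger than the reported ratio of any member, in genes brighter than BAX and BAK1. The simulation therefore does not bear on changes of the size reported here. Alternatives were other floors, scalings, probe set rules and thresholds. Python 3.11.15, numpy 2.4.6, pandas 2.3.3 and statsmodels 0.14.6 were used.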

Additional observations from a re-analysis of the deposited data

How the results depend on the processing

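Median centring, quantile normalization, lowess (span 0.3), a floor at percentile 50 or 75, no floor, averaging the probe sets of a gene, dropping the suffixes _x_at and _s_at, and keeping genes measured in both samples were tried. The count of members at least 2-fold higher was 0 under each of these, and 0 at 1.5-fold and 3-fold with the arrays as deposited; PMAIP1 had 0.59 after quantile normalization, at the edge of 1.5-fold, where that threshold was not counted. The count at least 2-fold lower was 0, except that it was 1 (BAX) with the floor at the 50th percentile or without a floor, and 3 at a threshold of 1.5-fold. With the floor at the 50th percentile or none, the pro-death median was -0.76 and its difference from the pro-survival median -0.63, since BAX and BAK1 are then not raised to the floor. Over these alternatives and the omission of BCL2L13, the difference lay between -0.63 and -0.22. The median of the members left under each setting, 10 or 8 genes, lay between -0.51 and -0.22. Without the suffixed probe sets the pro-survival median was 0.10 and MCL1 0.38, both now above 0. BAX and PMAIP1 then had no measured probe set, nor had BAX and BAK1 with the floor at percentile 75. Keeping only genes above the floor in both samples also left out BAX and BAK1. No other member changed direction. Quantile normalization moved the median of all measured genes by 0.11. No paired analysis was possible because each group holds 1 sample. Signals near the floor limit BAX, BAK1 and the dimmer probe sets.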
